A study of Mus musculus with 2 samples.

Results

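The immunoglobulin heavy and light chain genes were examined in the intestine of mice with a wild type (WT) or a heterozygous (ERAP1+/-) genotype for ERAP1, the aminopeptidase of the endoplasmic reticulum that trims peptides for antigen presentation. The members were chosen by symbol (Igh, Igk and Igl constant, variable and diversity genes) and by having at least 1 read over both libraries, and 41 of the 381 immunoglobulin symbols in the files qualified, out of 40879 gene symbols in all. Each genotype had 1 library, made from equal amounts of RNA pooled from 3 mice. According to the methods, the mice were 8 weeks old when assigned to groups, and tissue was collected weeks later, at the end of the course. They were on the C57BL/6 background and described both as germ-free and as housed under specific pathogen-free conditions. The ERAP1+/- mice came from the tm1a (EUCOMM) allele crossed with a Cre-expressing strain, by which exons 6 and 7 between loxP sites are removed. The labels name no treatment, and the group names in the methods are those of the mice that drank regular water. QuantSeq 3' mRNA sequencing was used, in which each read comes from the 3' end of a polyadenylated transcript, so that reads are not divided by transcript length.

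An antibody consists of paired heavy and light chains, each with a variable region that binds antigen and a constant region. The heavy constant gene in use defines the class of the antibody (IgM, IgD, IgG, IgE or IgA), and B cells change class by joining their rearranged variable region to a constant gene further downstream. The light chain is of the kappa or the lambda type. In the intestine, plasma cells of the lamina propria secrete mainly IgA, which is joined into dimers by the J chain and carried across the epithelium by the polymeric immunoglobulin receptor.

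The WT library held 8114826 reads and the library labelled ERAP1+/- 8907515. Levels are given as CPM, the reads scaled to a common library size after adjustment by TMM (trimmed mean of M values), and a gene without a read may have had as many as 3, which equals 0.386 and 0.322 CPM. The targeted gene Erap1 had 229 and 2 reads, so that the library labelled ERAP1+/- held 0.730% of the WT level, although a heterozygote keeps an intact copy. This genotype is therefore given below as labelled. Reads of Xist, the RNA that silences an X chromosome in female cells, were 1635 and 6451, and the labels do not give the sex of the mice. Intestinal epithelium was marked in both libraries (114049 and 105326 reads over 16 genes), but 12 epidermis genes summed to 25201 reads in WT and 385 in the library labelled ERAP1+/-, and 12 skeletal muscle genes to 9788 and 199. These values moved with the genotype label, their part in the differences below was not tested, and the tissue makeup, the mice and the genotype cannot be told apart. With 1 library per genotype, no difference has a replicate check and no p-value is given. Intervals are exact 95% intervals that cover counting error only.

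The ends of the coding sequences are shown for Igha, Igkc and the lambda genes, on which the results turn, and for Ighm, whose tailpiece can be set beside that of Igha. Each run is the last 66 bases of the coding sequence, 22 codons with the stop codon, from GENCODE M21 on GRCm38. It is written 5′ to 3′ on the strand of the gene, and capitals mark the in-frame cysteine codons.
Igha (chr12:113258768-113258833, minus strand): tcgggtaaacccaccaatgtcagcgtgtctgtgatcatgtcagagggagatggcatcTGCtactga
Ighm (chr12:113420867-113420932, minus strand): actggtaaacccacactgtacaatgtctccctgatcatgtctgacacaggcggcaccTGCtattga
Igkc (chr6:70726692-70726757, plus strand): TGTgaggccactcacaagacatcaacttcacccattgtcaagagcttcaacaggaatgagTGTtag
Iglc1 (chr16:19061752-19061817, minus strand): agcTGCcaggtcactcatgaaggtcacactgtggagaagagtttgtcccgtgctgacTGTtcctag
Iglc2 (chr16:19198536-19198601, minus strand): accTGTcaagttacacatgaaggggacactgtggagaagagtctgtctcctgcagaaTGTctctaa
Iglc3 (chr16:19065365-19065430, minus strand): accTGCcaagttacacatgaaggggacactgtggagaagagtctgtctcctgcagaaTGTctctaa

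The alpha and mu chains share a cysteine 2 codons before the stop, in the tailpiece through which IgA and IgM are bound to the J chain. The last cysteine of the kappa and lambda chains is the residue that forms the disulfide bond with the heavy chain. Iglc2 and Iglc3 end alike, and over 315 coding bases they differed at 11. The stretch in which most of these differences fall is given below, with 90 bases from each gene and the 7 bases that differ in capitals.
Iglc2 (chr16:19198749-19198838, minus strand): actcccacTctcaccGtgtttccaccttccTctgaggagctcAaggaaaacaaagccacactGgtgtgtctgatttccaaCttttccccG
Iglc3 (chr16:19065578-19065667, minus strand): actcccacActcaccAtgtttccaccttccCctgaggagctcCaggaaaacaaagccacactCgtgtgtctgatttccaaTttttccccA

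Reads of 75 bases were sequenced, and 5 windows of that length were shared by Iglc2 and Iglc3, 0.93% of the 537 windows of Iglc2 and 1.32% of the 378 of Iglc3. Iglc1 shared none with either gene. Among the gamma genes, Ighg2b shared 6 windows with Ighg2c and 14 with Ighg3, of 2603. A read from a shared window could be counted on either gene, so that values of Iglc2 against Iglc3 and among the gamma genes are less certain than those of Igha and Igkc.

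The 41 members held 2075 reads in WT and 15759 in the library labelled ERAP1+/-, which were 0.0256% and 0.177% of all reads and a ratio of 6.34 (95% interval 6.06 to 6.64). The rule used only the presence of a read, but the gene group was taken up with the higher level of some members in these libraries known, and the ratio is therefore a description. CPM were higher in the library labelled ERAP1+/- for 38 members, beside 50.6% of the 21838 symbols with at least 1 read, and lower for 3, beside 49.4%. The 3 were Ighd, Ighv9-3 and Igkv1-135, which had 4, 3 and 2 reads in WT and 3, 2 and 0 in the other library. At the edge of the rule, 13 members had 1 read over both libraries and 6 had 2, whereas 340 symbols had no read. Of the members, 27 had reads in the library labelled ERAP1+/- only and 1 in WT only. For these, the direction was fixed by the reads that made them members.

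By the rule of a difference over 2-fold on the log2(CPM + 1) scale with a value of at least 4 in 1 or both libraries, 4 members were called higher in the library labelled ERAP1+/-, beside 1.39% of the 8013 symbols past that level. They were Igha, Igkc, Iglc1 and Iglc2, and no other member was past the level. Iglc1 and Iglc2 reached it in the library labelled ERAP1+/- only, so that being past the level already required a higher value there. With at least 10 reads over both libraries instead, 11 members qualified, of which 10 were higher by over 2-fold on the same log2(CPM + 1) scale, beside 2.99% of 16142 symbols. None was lower by that margin, beside 5.63% of the symbols. The exception among the 11 was Ighg2c, and the median log2 difference of the 11 was 2.28, against 0.00199 over all symbols with at least 10 reads. Ighg3 (1 and 45 reads), Ighg1 (5 and 27) and Iglv1 (0 and 36) reached 10 reads only through the library labelled ERAP1+/-. For these members the filter favoured a higher value there, and the median of 2.28 was the value of Iglv1. These counts describe members taken up for their difference, and nothing particular to them was read from the background.

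The heavy constant genes lie in a row on chromosome 12 of GRCm38, all on the minus strand, in the order Ighm, Ighd, Ighg3, Ighg1, Ighg2b, Ighg2c, Ighe and Igha along the direction of transcription. Together they had 1790 reads in WT and 13778 in the library labelled ERAP1+/-, and their ratio was 6.43 (95% interval 6.12 to 6.76). Igha (chr12:113254830-113260236), which encodes the heavy constant region of IgA, accounted for 1670 and 13367 of these reads. Its level was 215 CPM in WT and 1437 CPM in the library labelled ERAP1+/-, a ratio of 6.69 (95% interval 6.35 to 7.04) and a log2 difference of 2.74. Ranked by CPM among all symbols, Igha stood at 722 in WT and at 49 in the other library. Igha thus set the sum of the heavy constant genes, and without it the remaining heavy constant reads were 120 and 411, a ratio of 2.86 (95% interval 2.33 to 3.54).

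Ighm, the constant region of IgM (chr12:113418558-113422730), had 29 reads or 3.73 CPM in WT and 109 reads or 11.7 CPM in the library labelled ERAP1+/-. The ratio was 3.14 (95% interval 2.07 to 4.91), below that of Igha by 2.13 times (95% interval 1.36 to 3.24, as the change in Igha reads per Ighm read). Ighm serves naive B cells as the membrane receptor as well as IgM plasma cells, and reads of the 3' end were summed over its forms. Ighd, the constant region of IgD on naive B cells (chr12:113406604-113416324), had 4 and 3 reads, or 0.515 and 0.322 CPM. Its ratio of 0.626 (95% interval 0.0918 to 3.70) held values on either side of equality. Ighe, the constant region of IgE (chr12:113269260-113273248), had no read in either library, which allows up to 0.168% of the heavy constant reads in WT and 0.0218% in the library labelled ERAP1+/-.

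The 4 gamma genes, which encode the constant regions of the IgG subclasses, did not move alike. Ighg2c (chr12:113285325-113288932), the IgG2c gene of the C57BL/6 strain, had 70 reads in WT and 124 in the library labelled ERAP1+/-, or 9.01 and 13.3 CPM. Its ratio of 1.48 (95% interval 1.10 to 2.01) was the lowest of the constant genes with at least 10 reads. Ighg2b (chr12:113302965-113307933) had 11 and 103 reads, or 1.42 and 11.1 CPM, a ratio of 7.82 (95% interval 4.19 to 16.2). Ighg3 (chr12:113356224-113361232), the IgG3 gene, had a single read in WT and 45 in the library labelled ERAP1+/-, or 0.129 and 4.84 CPM, with a ratio of 37.6 and a counting interval from 6.41 to 1517. Ighg1 (chr12:113325240-113330523) had 5 and 27 reads, or 0.643 and 2.90 CPM, a ratio of 4.51 (95% interval 1.71 to 15.0). Ighg2c was thus the gamma gene with the most reads in both libraries, and Ighg2b, nearly level with it in the library labelled ERAP1+/-, was far below it in WT.

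**Figure D1:**
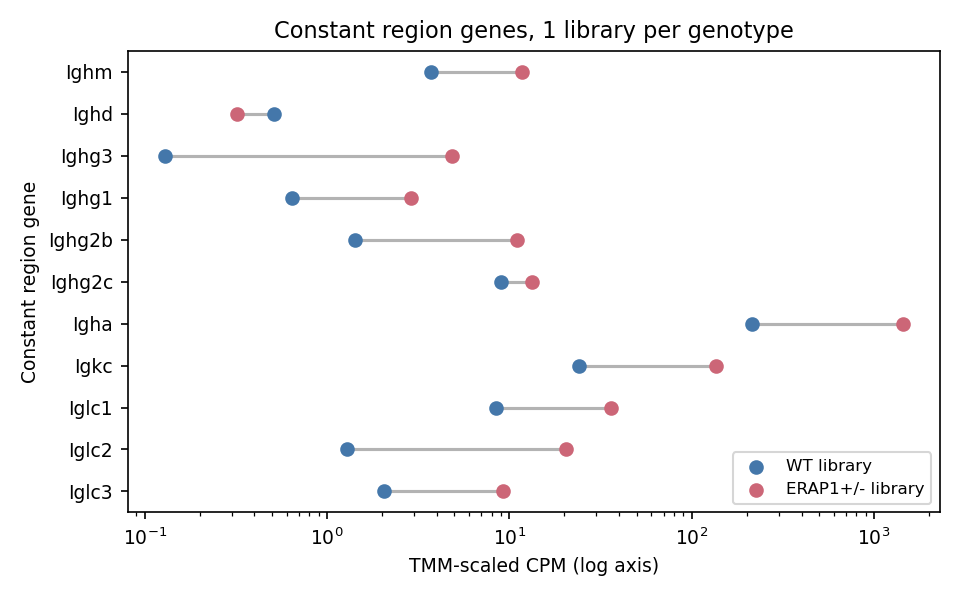
TMM-scaled CPM (log axis) of the 11 constant region genes with a read, with 1 point for the WT library (blue) and 1 for the library labelled ERAP1+/- (red), joined by a grey line. The red point lies to the right for every gene but Ighd (0.515 and 0.322 CPM), and the gap is narrow for Ighg2c (9.01 and 13.3 CPM) and wide for Igha (215 and 1437 CPM).

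The shares of the classes within a library do not depend on how the libraries were scaled. Igha made up 93.3% (exact 95% interval 92.0% to 94.4%) of the heavy constant reads in WT and 97.0% (96.7% to 97.3%) in the library labelled ERAP1+/-. Of the heavy constant reads other than Igha, Ighg2c made up 58.3% (49.0% to 67.3%) of 120 in WT and 30.2% (25.8% to 34.9%) of 411 in the other library, so that the intervals did not overlap. Ighg2b made up 9.17% and 25.1%, and Ighg3 0.833% and 10.9%. The shares of Ighm were 24.2% and 26.5%, a difference within their counting intervals. Ighg1 took 4.17% and 6.57% and Ighd 3.33% and 0.730%.

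Among gamma reads alone, Ighg2c made up 80.5% (70.6% to 88.2%) of 87 reads in WT and 41.5% (35.8% to 47.3%) of 299 in the library labelled ERAP1+/-. The number of Ighg2b reads per Ighg2c read was 0.157 and 0.831, a 5.29-fold change (95% interval 2.59 to 11.6). For Ighg3 this change was 25.4-fold (95% interval 4.11 to 1040) and for Ighg1 3.05-fold (95% interval 1.09 to 10.6). Without Ighg2c, the summed gamma reads were 17 and 175, a ratio of 8.60 (95% interval 5.22 to 15.1). Igha per Ighg2b read was 152 and 130, with a change of 0.855 (95% interval 0.413 to 1.60), an interval that includes no change and also a change by over 2-fold downwards.

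**Figure D2:**
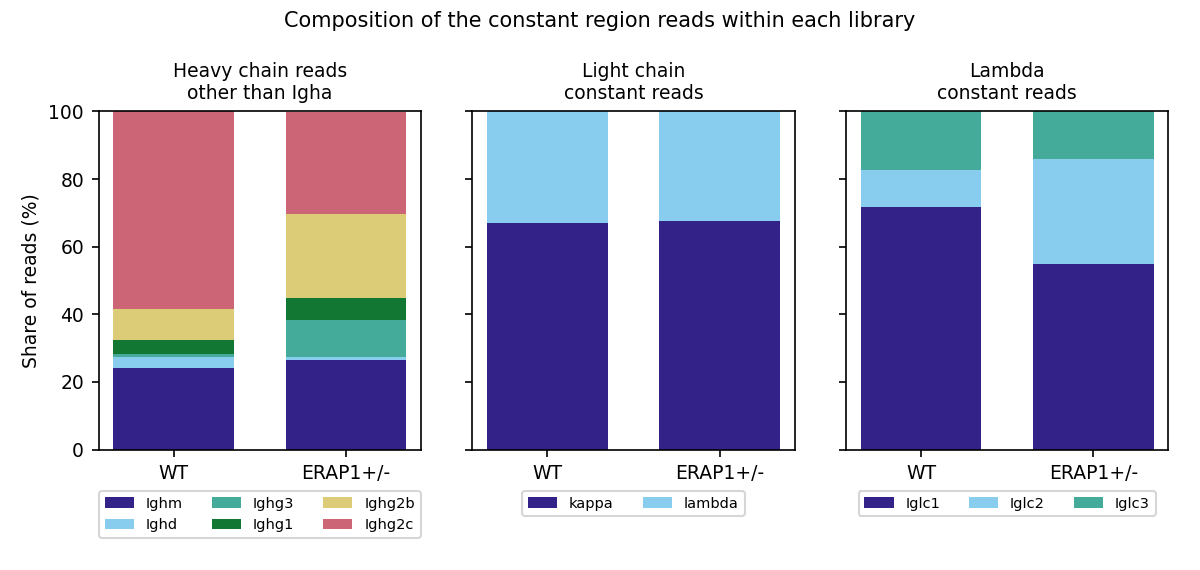
Stacked bars of the share of reads (%) within each library, for heavy constant reads other than Igha (left), light chain constant reads (middle) and lambda constant reads (right). Ighg2c takes 58.3% of the left bar in WT and 30.2% in the library labelled ERAP1+/-, the kappa and lambda parts of the middle bars are nearly level (lambda 33.0% and 32.5%), and Iglc2 takes 10.9% and 31.1% of the right bars.

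The kappa constant region has a single gene, Igkc (chromosome 6 of GRCm38, chr6:70726435-70726966, plus strand). It had 187 reads in WT and 1266 in the library labelled ERAP1+/-, or 24.1 and 136 CPM, a ratio of 5.66 (95% interval 4.85 to 6.63) and a log2 difference of 2.45. Its rank by CPM was 5833 and 1140. Igkc therefore moved nearly as far as Igha, with 8.93 and 10.6 Igha reads per Igkc read and a change of 1.18 (95% interval 1.00 to 1.39).

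The lambda constant genes lie on chromosome 16, on the minus strand, and held 92 and 610 reads, with a ratio of 5.54 (95% interval 4.44 to 6.97). Iglc1 (chr16:19061618-19062071) had 66 reads in WT and 334 in the library labelled ERAP1+/-, or 8.49 and 35.9 CPM, a ratio of 4.23 (95% interval 3.24 to 5.59). Iglc2 (chr16:19198396-19200351) had 10 and 190 reads, or 1.29 and 20.4 CPM, a ratio of 15.9 (95% interval 8.44 to 33.6). Iglc3 (chr16:19065230-19065681) had 16 and 86 reads, or 2.06 and 9.24 CPM, a ratio of 4.49 (95% interval 2.61 to 8.20). Iglc4 (chr16:19194999-19195312) had no read in either library.

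The order of the lambda genes by CPM thus differed, with Iglc1, Iglc3 and Iglc2 in WT and Iglc1, Iglc2 and Iglc3 in the library labelled ERAP1+/-. Iglc2 made up 10.9% (exact 95% interval 5.34% to 19.1%) of the lambda constant reads in WT and 31.1% (27.5% to 34.99%) in the other library. Per Iglc1 read there were 0.152 and 0.569 Iglc2 reads, a change of 3.75 (95% interval 1.86 to 8.37), whereas for Iglc3 the change was 1.06 (95% interval 0.573 to 2.07). Against Iglc3, its near-identical partner with 95.6% aligned identity, Iglc2 changed by 3.53 times (95% interval 1.43 to 9.06), although how the authors assigned reads of the shared windows is not known. The sum of Iglc2 and Iglc3 within the lambda reads does not depend on how such reads were divided between them, although reads left uncounted would lower it. It stood beside an Iglc1 share of 71.7% (61.4% to 80.6%) in WT and 54.8% (50.7% to 58.8%) in the library labelled ERAP1+/-.

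The balance of the light chain types was nearly level, since lambda made up 33.0% (27.5% to 38.8%) of 279 light chain constant reads in WT and 32.5% (30.4% to 34.7%) of 1876 in the library labelled ERAP1+/-. Kappa reads per lambda read were 2.03 and 2.08, a change of 1.02 (95% interval 0.772 to 1.34). Heavy constant reads per light constant read were 6.42 and 7.34, a change of 1.14 (95% interval 0.996 to 1.31). These intervals bound the change by counting error and do not show that the values were equal in the mice.

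**Figure D3:**
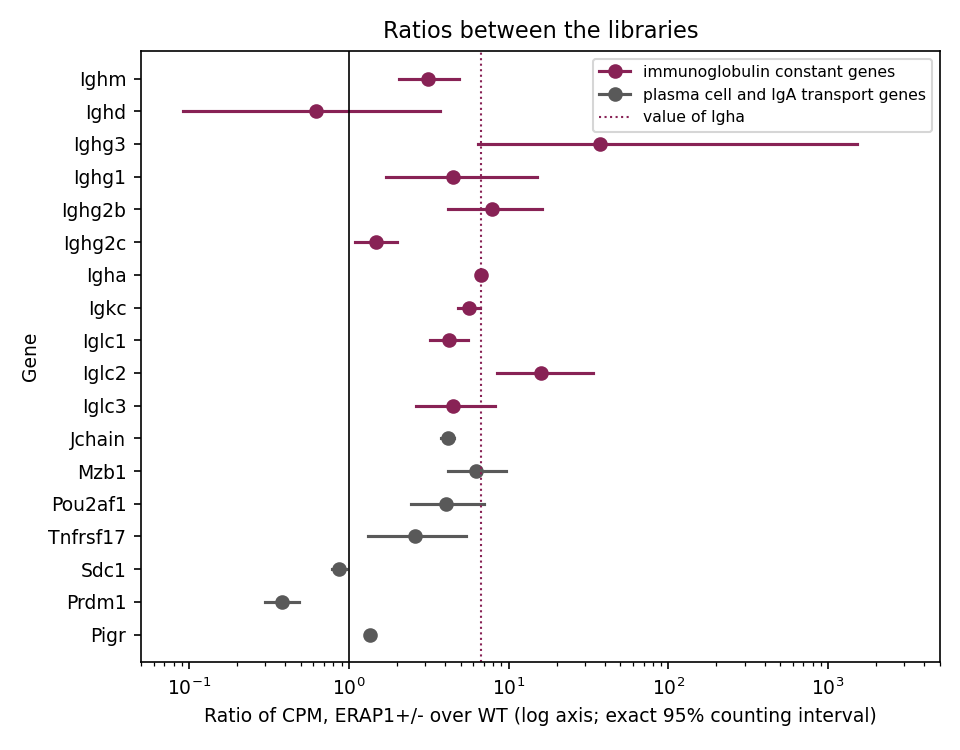
Ratio of CPM between the library labelled ERAP1+/- and the WT library (log axis) for the 11 constant genes (purple) and for genes of plasma cells and IgA transport (grey), with exact 95% counting intervals as horizontal lines. The dotted line is the value of Igha (6.69), the black line is equality, and Jchain (4.15) and Mzb1 (6.22) lie on the side of the constant genes, whereas Prdm1 (0.383) lies below equality and Pigr (1.36) a little above it.

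Variable genes, of which 1 of each kind is joined to a constant gene in a B cell, held few reads, 6 in WT and 105 in the library labelled ERAP1+/-, a ratio of 14.6 (95% interval 6.50 to 40.7). They made up 0.289% (exact 95% interval 0.106% to 0.628%) and 0.666% (0.545% to 0.806%) of the members' reads. The 3' end of an antibody transcript lies in its constant gene, and a polyadenylation signal (AATAAA or ATTAAA on the strand of the gene in the last 60 bases of its transcript) was found in 12 of the 13 annotated constant genes and in 7 of 346 variable genes. Of the 30 variable genes with a read, 1 held it. The reads on variable genes are therefore too few to describe a repertoire.

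Iglv1, a lambda variable gene, held the most of them, with no read in WT and 36 in the library labelled ERAP1+/- (3.87 CPM), which is at least 10.02-fold higher against a floor of 3 reads in the WT library (exact 95% limit of 7.74). Iglv3 had 0 and 7 reads, for which the exact limit was 1.20, and Iglv2 had none. Iglv1 shared 30 of its 317 windows of 75 bases (9.46%) with Iglv2, at 97.1% aligned identity, and none with Iglv3. Lambda variable reads summed to 0 and 43, at least 12.0-fold higher (exact 95% limit of 9.33), and made up 6.58% of the lambda members' reads in the library labelled ERAP1+/-. In WT they were 0 of 92, which allows up to 3.26%. For kappa members this share was 1.58% and 2.84%, and for heavy members 0.167% and 0.181%.

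Heavy variable genes had 3 reads in WT and 25 in the library labelled ERAP1+/-, a ratio of 6.96 (95% interval 2.12 to 36.0), on 11 of the 183 symbols. The 3 reads in WT all fell on Ighv9-3, which had 2 in the other library. The leading genes in the library labelled ERAP1+/- were Ighv3-6 with 7 reads, Ighv1-55 with 4 and Ighv4-1 with 3, all without a read in WT, and Ighv1-50 and Ighv6-6 followed with 2 each. Their counts are too low to bound a difference well, with an exact limit of 1.20 for Ighv3-6 and 0.551, on the other side of equality, for Ighv1-55. None of the 20 diversity segments had a read.

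Kappa variable genes had 3 and 37 reads and a ratio of 10.3 (95% interval 3.26 to 52.2), on 17 of 162 symbols. Igkv2-109 had 0 and 7 reads, Igkv12-44 1 and 6, Igkv5-39 0 and 4, and Igkv11-106 and Igkv6-15 0 and 3 each. Igkv1-135 had 2 reads in WT and none in the library labelled ERAP1+/-, and was the only member with reads in WT alone, beside 8.17% of the symbols with at least 1 read. In the library labelled ERAP1+/- alone, 27 members had reads, beside 9.59% of these symbols. The ratio of Igkv12-44 was 5.01 with a counting interval from 0.608 to 231.

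Across all variable genes, 3 had a read in WT and 29 in the library labelled ERAP1+/-. At an equal depth of 6 reads, 4.59 genes would be expected from the latter, beside the 3 seen in WT. In the library labelled ERAP1+/-, Iglv1 took 34.3% of the variable reads and the leading 3 genes 47.6%, and the inverse Simpson number, the count of equally used genes that would give the same evenness, was 7. It was 6.87 for the 11 heavy genes and 9.85 for the 16 kappa genes with a read there. The reads were spread over families, and the Ighv1 family, with 92 symbols in the files, held 9 reads on 5 genes. Of the 30 variable genes with a read, 2 are annotated as pseudogenes (6.67%), Igkv11-106 and Igkv5-40-1, beside 127 of 316 (40.2%) without a read.

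**Figure D4:**
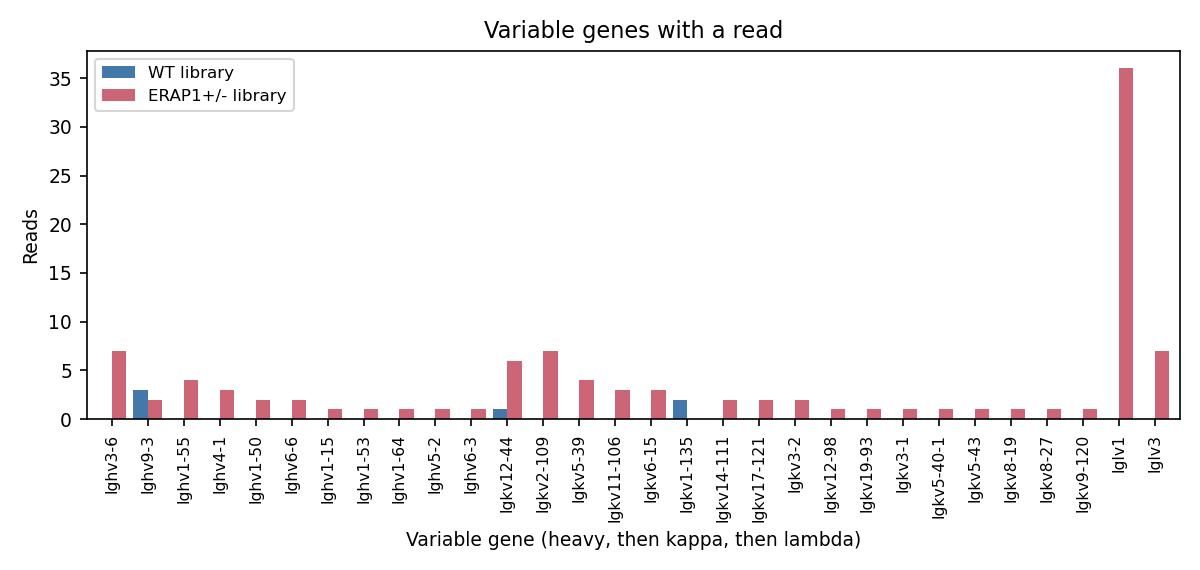
Reads counted on each of the 30 variable genes with a read, heavy genes on the left, then kappa, then lambda, with bars for the WT library (blue) and the library labelled ERAP1+/- (red). Iglv1 stands apart with 36 reads, no other gene has more than 7, and blue bars appear for Ighv9-3, Igkv12-44 and Igkv1-135 only.

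Genes that act with the immunoglobulins were examined from lists drawn up with earlier results of these data known. Their genes were counted as differing by over 2-fold on the log2(CPM + 1) scale, on which genes with few reads differ by less than in the plain ratios of CPM given beside them. Over all symbols with at least 10 reads, 2.99% were higher and 5.63% lower by that margin, and the median log2 difference was 0.00199. These shares stand beside the counts of every list below. Of 20 plasma cell genes, all with at least 10 reads, 5 were higher by over 2-fold on that scale in the library labelled ERAP1+/-, 1 was lower, and the median log2 difference was 0.68. Jchain, the J chain of polymeric IgA and IgM, had 561 and 2788 reads and a ratio of 4.15 (95% interval 3.79 to 4.55). Mzb1, a chaperone of antibody assembly in the endoplasmic reticulum, had 27 and 201 reads and a ratio of 6.22 (95% interval 4.15 to 9.67). Pou2af1, the coactivator of octamer-dependent immunoglobulin transcription, had 19 and 92 reads, Tnfrsf13b (TACI, a receptor for BAFF and APRIL) 12 and 55, and Slamf7 21 and 95. All 5 were higher as the constant genes were. Hsp90b1, a chaperone, and Xbp1, a transcription factor of secretory cells, both of which epithelial cells also express, had ratios of 1.42 (95% interval 1.36 to 1.48) and 1.33 (95% interval 1.20 to 1.48).

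The lower gene was Prdm1, the transcription factor Blimp-1, with 216 and 99 reads and a log2 difference of -1.31. It is also expressed in epithelium. Sdc1, the plasma cell surface marker CD138, which epithelium carries too, had 807 and 839 reads and a ratio of 0.868 (95% interval 0.787 to 0.958). Tnfrsf17 (BCMA), a receptor of plasma cells, had 12 and 37 reads and a plain ratio of 2.58 (95% interval 1.31 to 5.43), but a difference of 0.97 on the log2(CPM + 1) scale, short of 2-fold.

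Igha reads per Jchain read were 2.98 in WT and 4.79 in the library labelled ERAP1+/-, a change of 1.61 (95% interval 1.45 to 1.79), and for Igkc per Jchain read the change was 1.36 (95% interval 1.14 to 1.64). Against Mzb1, Igha changed by 1.08 (95% interval 0.689 to 1.62). In a tissue library, more plasma cells and more immunoglobulin RNA in each cell cannot be told apart.

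Pigr, the receptor that carries IgA through the epithelium, had 7995 and 13056 reads and a ratio of 1.36 (95% interval 1.33 to 1.40). Igha reads per Pigr read were thus 0.209 and 1.02, a change of 4.90 (95% interval 4.62 to 5.20). Among the 10 genes of IgA transport and Fc receptors with at least 10 reads, 2 were higher by over 2-fold, Fcmr (the IgM receptor, 3 and 21 reads) and Asgr1 (0 and 10 reads), and none was lower by that margin, with a median of 0.19. The log2 difference was below 0 for 4 of the 10, and lowest for Fcamr. Fcamr had 28 and 17 reads and a plain ratio of 0.507 (95% interval 0.260 to 0.959). Asgr1 is a receptor of the liver.

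Genes of class switching and IgA induction included 2 of 13 that were higher by over 2-fold and none lower, with a median of 0.20. They were Tnfrsf13c, the BAFF receptor of B cells, with 3 and 27 reads, and Aldh1a2, an enzyme of retinoic acid synthesis, with 0 and 19 reads, at least 5.29-fold higher against the floor (exact 95% limit of 3.90). Tnfsf13b (BAFF) had 95 reads in each library and Tgfb1, the cytokine that directs switching to IgA, 20 and 18.

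Of 16 mature B cell genes, 1 was higher by over 2-fold on the log2(CPM + 1) scale and 1 lower, beside 2.99% and 5.63% of all symbols with at least 10 reads. A count of 1 in 16 is too small to be told from these shares. The median log2 difference of the 16 was 0.56. Cd79b, a signalling chain of the B cell receptor, had 5 and 50 reads and Ly6d, which is also a keratinocyte gene, 649 and 114. Ms4a1, the surface protein CD20 of B cells, had 13 and 38 reads, with a plain ratio of 2.44 (95% interval 1.27 to 4.995), and Pax5, the transcription factor that maintains B cell identity, had 33 and 78, with a ratio of 1.97 (95% interval 1.30 to 3.06). Rag1, Rag2 and Igll1, genes of V(D)J recombination and of precursor B cells, had no read in either library.

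Genes of germinal centres and lymphoid follicles were higher by over 2-fold in 4 of 12 cases and lower in none, with a median of 0.46. These were Ccl20, the chemokine of follicle-associated epithelium (2 and 36 reads), Madcam1, the vessel ligand of gut-homing lymphocytes (1 and 30), Gp2, a receptor of M cells (1 and 12), and Glycam1, a ligand of L-selectin on vessels of lymph nodes (11 and 80). Among 10 genes of plasma cell homing, Madcam1 and Cxcr4 (18 and 54 reads) were higher by over 2-fold and none was lower by that margin. Itgb7 was the only 1 of the 10 with a log2 difference below 0 (-0.71), at 31 reads in WT and 19 in the library labelled ERAP1+/-. Its plain ratio was 0.512, with a counting interval from 0.273 to 0.935. Ccl28, the epithelial chemokine that attracts IgA plasma cells, had 187 and 273 reads, and its receptor Ccr10 7 and 19. Whether the pieces of intestine held different amounts of lymphoid tissue was not tested.

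Other cell types gave smaller or opposite values. Of 7 T and NK cell genes and 12 macrophage and dendritic cell genes, none differed by over 2-fold on the log2(CPM + 1) scale, and both medians were 0.17. In plain ratios of CPM, Itgax, an integrin of dendritic cells, stood at 2.40 (95% interval 1.33 to 4.54), Trac, the constant region of the T cell receptor alpha chain, at 3.06 (0.809 to 17.1) and Lck, a kinase of T cells, at 2.19 (0.933 to 5.72). The log2 difference was below 0 for 2 of the 7 and 4 of the 12 genes. Among these, Cd4 had a plain ratio of 0.597 (0.286 to 1.21) and Itgam 0.582 (0.446 to 0.758). The 16 epithelium genes had a median of -0.34, which was 0.03 when the libraries were scaled by these genes themselves, with Krt20 (5156 and 2674 reads) lower by over 2-fold. For smooth muscle, the median of 8 genes was -0.91, and 2 were lower by over 2-fold. All 12 epidermis genes (median -5.36) and 11 of 12 skeletal muscle genes (median -5.23) were lower by over 2-fold in the library labelled ERAP1+/-. Per read of the epithelium list, the members changed by 8.22 times (95% interval 7.85 to 8.62). The list itself was lower in the library labelled ERAP1+/-, with a ratio of 0.771, so that scaling by it could only raise the ratio of the members. Whether the tissue makeup had a part in the difference was not tested.

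**Figure D5:**
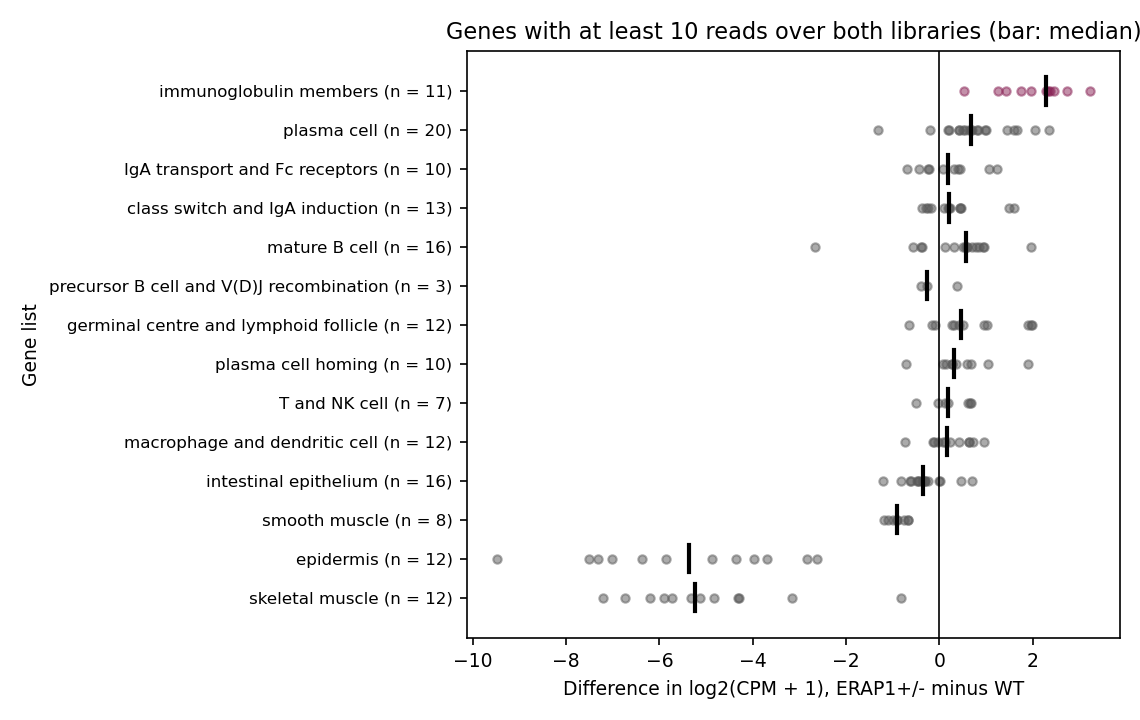
Difference in log2(CPM + 1), library labelled ERAP1+/- minus WT, of every gene with at least 10 reads over both libraries, for the immunoglobulin members (purple) and 13 gene lists (grey points), with a black bar at the median of each. The members have a median of 2.28, the plasma cell list 0.68, the epithelium list -0.34, and the epidermis and skeletal muscle lists -5.36 and -5.23.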

How the data were processed

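Intestinal RNA of 3 mice per genotype was pooled, and 1 library per genotype was sequenced from the 3' ends with single reads of 75 bases. The deposited counts are whole, without normalization, per gene symbol, as the authors' counting left them, and the totals were 8114826 and 8907515. The methods name STAR with HTSeq-count in one place and Bowtie2 with RSEM in another, the submitters' processing notes name Bowtie2, RSEM and GRCm38, and which of them made the counts is not given in the sources used here. TMM factors (0.958 for WT and 1.04 for ERAP1+/-) came from edgeR 4.0.16 (R 4.3.3), and the library sizes so adjusted gave CPM and log2(CPM + 1). Without replicates, no model was fitted. Ratios carry exact conditional binomial 95% intervals and shares Clopper-Pearson 95% intervals (scipy 1.17.1). The intervals and the 2-fold rule were tried on simulated counts with counting error only. The simulation held no variation between mice and placed its changes in genes with many reads. It therefore does not bear on members with few reads. The members, the gene lists and the genes named were chosen with earlier results of these data known. Named were all constant genes, the leading variable genes by reads, members past the 2-fold rule and members of the lists described. Coordinates and sequences came from GENCODE M21 on GRCm38, in which all 41 members were found by symbol. The symbol Ighmbp2, a DNA-binding protein, was left out. Alternatives were scaling by DESeq2 1.42.0 size factors, by the total count, by TMM without the members and by epithelium genes, a pseudocount of 0.1, other filters and a 4-fold threshold.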

Additional observations from a re-analysis of the deposited data

Results flagged for a closer look

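Joining segments, which are not constant, variable or diversity genes and so were outside the members, had no read in WT and 5 reads in the library labelled ERAP1+/-, over 14 symbols. These reads lay in symbols that no comparison used and passed the 3 reads that a count of 0 allows. They fell on Igkj2 with 3 reads and on Iglj1 and Iglj3 with 1 each, and the difference was not tested.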

How the results depend on the processing

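The ratios were raised by scaling with the total count or with epithelium genes, which moved the median log2 difference of all genes past the level by 0.12 and 0.37. With the total count, the ratio was 7.01 for heavy constant genes and 6.92 for all members. With epithelium genes it was 8.33 for heavy constant, 7.33 for kappa constant, 7.18 for lambda constant and 8.22 for all members. Members called higher numbered 4 at the level used and 10 with at least 10 reads, beside 1.39% and 2.99% of the symbols. With no filter on low values the count was also 10, but no share over all symbols was computed for that setting, and nothing is read from it. Igha made up 95.05% (WT) and 97.8% (ERAP1+/-) of switched heavy constant reads. By variable genes, lambda made up 0% (0 of 3 reads) in WT and 53.8% (43 of 80 reads) in ERAP1+/-. Variable genes with at least 10 reads numbered 0 and 1. No direction of a constant gene turned in 44 alternatives, of which 41 stayed within counting error. The medians of the 13 lists stayed within their spread, but those of the precursor B cell and epithelium lists turned from -0.27 and -0.34 to 0.03 and 0.03 with epithelium scaling. The planned search of promoters for the octamer was not run, because the promoter windows used here held none of the members. No paired analysis was possible because a single library stands for each genotype. Counts of 1 to 5 reads in WT limit the ratios of Ighg3, Ighg1 and Ighd, and every variable gene had at most 3 reads there.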
